A study of Oryza sativa with 24 samples.

Results

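Excised rice leaves carrying the label trans-zeatin (tZ) 30 min were compared with excised leaves carrying the label dimethylsulfoxide (DMSO) 30 min. The comparison used 6 of the 24 arrays of the series, chosen by their titles, 3 labelled Leaf tZ-treatment 30 min and 3 labelled Leaf DMSO-treatment 30 min. The series measured transcript levels of the rice cultivar Nipponbare on a 1-colour array, in roots and in leaves, with and without the cytokinin tZ, after 30 or 120 min. Per the labels' protocols, plants grew on water for 2 weeks, the third leaf was cut off at its lamina joint, and the cut leaf stood in distilled water at 30 °C. Leaves of the tZ groups received 5 µM tZ in 0.1% DMSO and leaves of the DMSO groups received 0.1% DMSO. Excision, DMSO and the incubation temperature were therefore shared by all leaf groups, and no uncut leaf was among the arrays used here. How many leaves went into an array, and whether replicate arrays stem from different seedlings or culture vessels, is not given in the sources used here. All p-values are therefore relative to array-to-array spread, part or all of which may be technical.

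Cytokinins are adenine-derived hormones that regulate cell division, shoot growth, chloroplast development and leaf senescence. They are sensed by membrane histidine kinases, and phosphate is relayed through histidine phosphotransfer proteins to type-B response regulators, which activate transcription. Type-A response regulators are rapid targets of this relay and dampen it, cytokinin dehydrogenases (CKX) break the hormone down, and LOG enzymes release active cytokinin from its nucleotide form.

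Organ labels were checked first, because the tissue field of all samples names root whereas titles, source names and protocols name leaf for 12 of them. In the leaf DMSO 30 min arrays the rubisco activase gene OsrcaA1 read 24279.5, 25026 and 26538, against 167, 169.6 and 134 in the root arrays of the same label. The chloroplast factor gene OsGLK2 read 7146, 7168 and 7152 in leaf and 6.60, 9.80 and 11.6 in root. OsCASP1, of a family of Casparian strip proteins of root endodermis, read 69.3, 39.7 and 7.20 in leaf and 1113, 1159 and 1219 in root, and in the 3 leaf tZ 30 min arrays 9.80, 11.2 and 12.4. Leaf and root arrays did not overlap for these genes, and the titles were followed. Array medians in the 4 leaf groups lay between 47.6 and 57.0 signal units, and log2 values of arrays within a leaf group correlated across probe sets at 0.975 to 0.982.

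The treatment labels carry a doubt that touches every result below: the labels tZ 30 min and DMSO 120 min may be exchanged. In that case the comparison would be of DMSO for 120 min with DMSO for 30 min. The difference between the labels DMSO 120 min and DMSO 30 min would then be that of tZ for 30 min. Between the arrays labelled DMSO 120 min and those labelled DMSO 30 min, 315 of 57194 probe sets passed the test (0.551%). Between the arrays labelled tZ 30 min and DMSO 30 min 14866 passed (26.0%). Each of these was a limma test with Benjamini-Hochberg adjustment over all 57194 non-control probe sets and a threshold of 0.05. The type-A genes had another order. For 5 of the 6 measured, every leaf array labelled DMSO 120 min lay above every leaf array labelled tZ 30 min. The root means of the same 5 genes had that order too. Examples are OsRR9, at 16091 in DMSO 120 min and 1298 in tZ 30 min, and OsRR1, at 217 and 144. The doubt therefore extends to the root labels behind the leaf minus root differences below. Whether an exchange took place was not tested, and group names below are those of the labels.

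**Figure D1:**
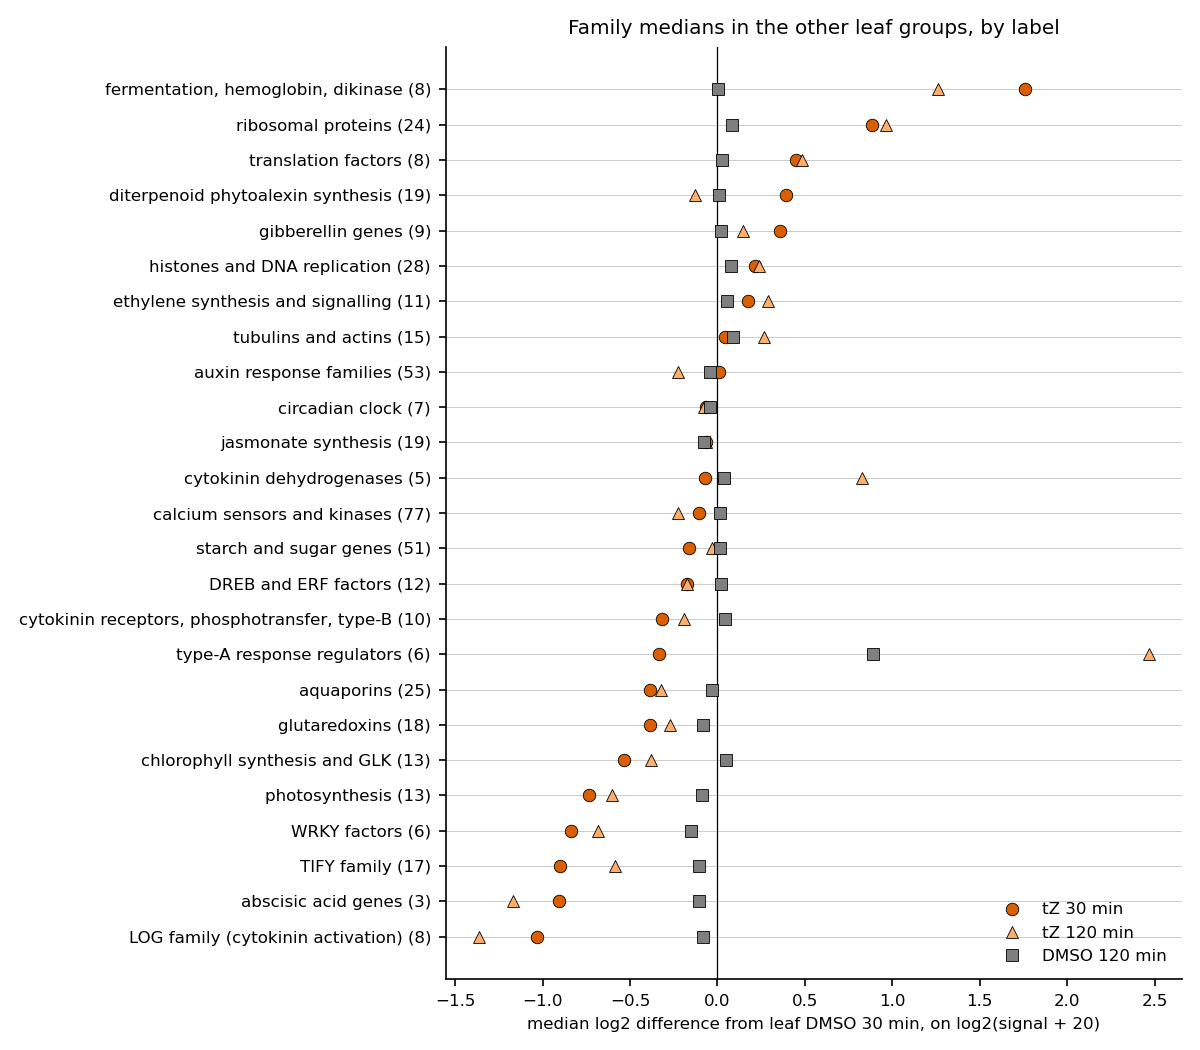
Medians of gene families in the leaf groups labelled tZ 30 min (circles), tZ 120 min (triangles) and DMSO 120 min (squares), as log2 differences from leaf DMSO 30 min on the log2(signal + 20) scale, with the number of genes per family in brackets. Most DMSO 120 min medians lie near 0 while the type-A response regulators stand at 0.89 in DMSO 120 min and at -0.33 in tZ 30 min; all 3 differences share the DMSO 30 min arrays.

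Levels are given in linear signal units of the deposited table, and changes are log2 differences of log2(signal + 20), tZ 30 min minus DMSO 30 min, with the SE of the limma fit. Adding 20 shrinks the changes of dim genes. A gene was represented by its brightest probe set, and of 17905 genes 9025 passed (50.4%), 4546 of them higher (25.4%) and 4479 lower (25.0%) in tZ. With arrays that did not overlap, 29.8% of genes were higher and 29.4% lower. The median change over genes was 0.01 and the median size of a change 0.38. Past the test, 1103 genes were more than 2-fold higher and 1330 more than 2-fold lower, and 51 and 56 were past 8-fold. These shares are the background for the counts of each family below. Families were matched by gene symbol among the 2457 genes with a name, so they are not complete. Of the named genes 54.0% passed, 25.0% higher and 29.0% lower.

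In the cytokinin pathway more genes fell than rose. Among type-A response regulators, 1 of 6 measured genes rose and 2 fell (median change -0.33). OsRR6 read 1166, 1140.2 and 1124 in the DMSO arrays and 2142, 1982 and 1977 in the tZ arrays, a rise of 0.82 ± 0.048, adjusted p = 3.4e-09. OsRR9 read 2998, 3085 and 3228 in DMSO and 1023, 934 and 1012 in tZ, a change of -1.63 ± 0.058, adjusted p = 1.6e-11. The groups did not overlap for either gene, and they moved in opposite directions. The dimmer OsRR1 fell from 97.1 ± 18.5 to 32.5 ± 28.8 (SD, n = 3; -1.30 ± 0.31, adjusted p = 0.00474), a change that became -0.68 with 80 in place of 20 added to the signal. The adjusted p of OsRR1 was 0.062 when only these 6 arrays entered the fit. OsRR4 read 301 and 354 and did not pass (adjusted p = 0.1), but passed without the tZ array 2 (0.31, adjusted p = 0.013). OsRR2 read 365 and 284 and did not pass (adjusted p = 0.252), but passed without the DMSO array 2 (-0.55, adjusted p = 0.0015). OsRR5 had means below 30 signal units in both groups.

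In the other leaf groups the type-A genes other than the dim OsRR5 stood higher. OsRR9 read 12760.0 ± 782 in DMSO 120 min and 12423 ± 523 in tZ 120 min, and OsRR6 3899.5 ± 95.7 and 9758 ± 220.2. OsRR4 stood at 749 ± 62.3 and 4139.9 ± 307, OsRR2 at 455 ± 43.3 and 1696 ± 187, and OsRR1 at 147 ± 19.1 and 758 ± 102. For each of these genes the DMSO 120 min mean was above the tZ 30 min mean and the DMSO 30 min mean.

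**Figure D2:**
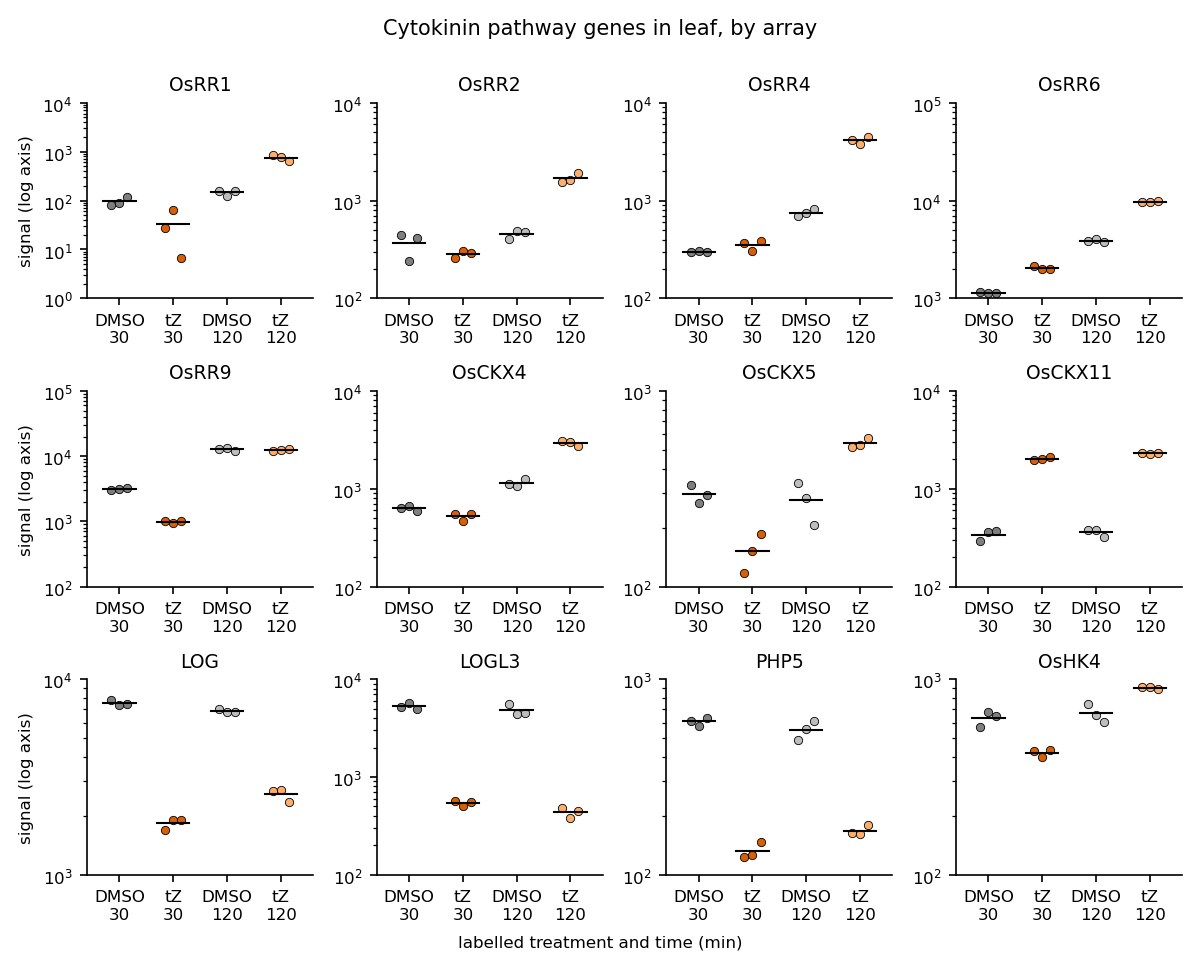
Signal (log axis) of 12 cytokinin pathway genes in each leaf array, grouped by labelled treatment and time in min; points are arrays and bars group means. OsCKX11 is high in both tZ groups, LOG, LOGL3 and PHP5 are low in both, and the type-A genes are higher in DMSO 120 min than in tZ 30 min.

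Cytokinin breakdown and activation genes also differed. OsCKX11, a cytokinin dehydrogenase gene, read 291, 359.8 and 369 in DMSO and 1952, 1998 and 2105 in tZ, so that all tZ arrays lay above all DMSO arrays (2.51 ± 0.087, adjusted p = 1.3e-11). Of the other 4 dehydrogenase genes, OsCKX5 fell from 297 to 152 (-0.90 ± 0.17, adjusted p = 0.0007). OsCKX4 read 632 and 526 (-0.26 ± 0.081, adjusted p = 0.0282), a call that was lost in 6 of 14 alternatives, for example without the tZ array 2 (-0.18, adjusted p = 0.13). OsCKX4 stood at 1146 in DMSO 120 min and 2941 in tZ 120 min. OsCKX1 and OsCKX3 had means below 30 signal units in both groups and did not pass, except OsCKX3 without the tZ array 1 (1.03, adjusted p = 0.039).

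LOG and its relatives fell more uniformly, with 6 of 8 genes lower and 1 higher (median change -1.03). LOG, the founding member known from rice shoot meristems, read 7795, 7399 and 7429.8 in DMSO and 1687, 1907 and 1915 in tZ (-2.03 ± 0.064, adjusted p = 4.6e-12). LOGL3 read 5193, 5639.8 and 4929.9 and 574, 511 and 555, a 9.62-fold lower mean (-3.22 ± 0.099, adjusted p = 3.5e-12). Neither gene's groups overlapped. LOGL7 fell by 1.59 (its dimmer probe set, at -0.37, did not pass), LOGL9 by 1.16, LOGL10 by 0.90 and LOGL5 by 0.60, whereas LOGL1 rose from 307 to 566 (0.84 ± 0.086, adjusted p = 1.6e-06). LOGL1 changed by -0.86 in root under the same labels, and the leaf minus root difference passed (1.70 ± 0.12, adjusted p = 1.2e-10).

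Of the 10 receptor, phosphotransfer and type-B genes, 2 rose and 5 fell. PHP5, named as a phosphotransfer protein, read 608, 579 and 636 in DMSO and 124, 126 and 146 in tZ without overlap (-2.05 ± 0.11, adjusted p = 1.3e-09). The receptor gene OsHK4 fell from 631 to 422 (-0.56), while the receptor genes OsHK3 and OsHK5 did not pass, although OsHK5 did without the DMSO array 1 (0.25, adjusted p = 0.039). The other OsHK5 probe set passed the opposite way, from 1109.5 to 902 (-0.29, adjusted p = 0.028), so the direction of this gene is uncertain. Type-B regulators RR21, RR23 and RR24 fell by 0.51, 0.64 and 0.45, and RR22 rose from 399 to 591 (0.54 ± 0.087, adjusted p = 0.00017). OsAHP2 changed by 0.14 (adjusted p = 0.0444), a call lost in 9 of 14 alternatives, among them without the DMSO array 3 (0.13, adjusted p = 0.12).

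**Figure D3:**
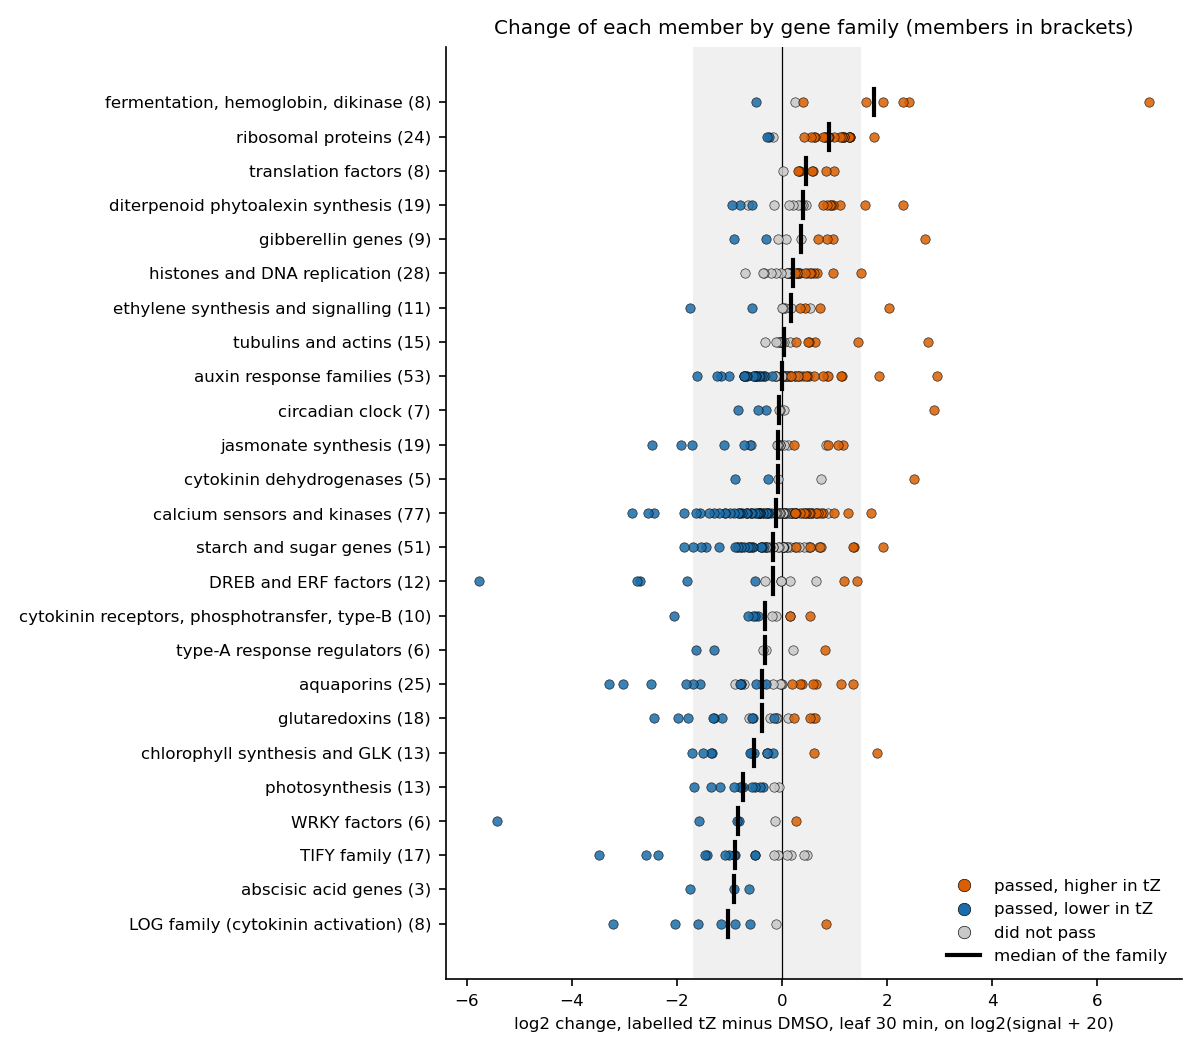
Log2 change of each gene, labelled tZ minus DMSO, leaf 30 min, in 25 gene families with the number of members in brackets; colour gives the limma call and black bars the family median. The grey band spans the middle 95% of all genes, from -1.68 to 1.48, and the ribosomal proteins lie mostly to the right of 0 while photosynthesis, TIFY and LOG genes lie mostly to the left.

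Genes of ethanol fermentation and oxygen binding included the largest rise among the named genes, that of Adh2. Plants use pyruvate decarboxylase and alcohol dehydrogenase to make ethanol when respiration is limited, and nonsymbiotic hemoglobins bind oxygen and nitric oxide. Of 8 genes in this group 6 rose and 1 fell (median change 1.76). PDC2, a pyruvate decarboxylase gene, read 3477, 3569.7 and 3474 in DMSO and 17341, 18525 and 16252 in tZ (2.30 ± 0.052, adjusted p = 1.9e-13). Adh2 read 86.8, 93.8 and 73.9 and 13259.8, 13089 and 13093, which made its mean 155-fold higher. All tZ arrays lay above all DMSO arrays for both. The dim PDC1 rose from 22.8 ± 25.2 to 193 ± 67.5 (2.41 ± 0.36, adjusted p = 8.4e-05), a change of 1.40 with 80 added to the signal and 3.14 with 5.

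The hemoglobin gene OsNSHB2 rose from 150.1 to 623 (1.93 ± 0.14, adjusted p = 4.6e-08). OsNSHB1 moved from 218 to 291 (0.40 ± 0.13, adjusted p = 0.041), and lost its call in 6 of 14 alternatives, for example without the DMSO array 3 (0.27, adjusted p = 0.18). Its other 2 probe sets passed with larger rises, of 0.61 (adjusted p = 0.0091) and, from 36.4 to 270.2, of 2.44 (adjusted p = 6.8e-05). Pyruvate phosphate dikinase makes phosphoenolpyruvate from pyruvate. Its gene PPDK2 rose from 41.8 to 160.4 (1.59 ± 0.28, adjusted p = 0.0004), while OsPPDKB fell from 7055 to 5005 (-0.49 ± 0.046, adjusted p = 6.1e-07). The leaf differed from the root in 6 of these 8 genes, against 39.4% of all genes. Adh2 rose more in leaf, by a difference of 6.26, whereas PDC1, PPDK2, OsNSHB2 and OsNSHB1 rose more in root, by differences of -4.41, -3.37, -1.94 and -1.30. The organs started from different levels: Adh2 already read 22403 in root DMSO and 36768 in root tZ, against 84.8 in leaf DMSO. OsPPDKB, which fell in leaf, changed by 2.55 in root (difference -3.05). PDC2 changed by 2.30 in leaf and 2.30 in root.

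Most measured genes of the protein synthesis machinery rose. Among 24 ribosomal protein genes 21 rose and 2 fell (median change 0.89). RPS26 read 3169, 2988 and 2966 in DMSO and 9062, 10987 and 10872 in tZ (1.75 ± 0.065, adjusted p = 2.7e-11). RPL3 read 4329.6, 4575 and 4408 and 10262, 10536 and 11588 (1.28 ± 0.057, adjusted p = 1.8e-10), and RPS10-1 rose by 1.30. Neither RPS26 nor RPL3 overlapped between groups. RPL27 fell by 0.28 (its other 2 probe sets, at -0.39 and -0.42, did not pass) and RPL18 by 0.24, and rpl5 read 2531 and 2244 without passing (adjusted p = 0.0507). RefSeq lists RPL18 and RPL27 also as CL18 and CL27. RPL18 lost its call without the DMSO array 1 (-0.20, adjusted p = 0.093) and without the tZ array 3 (-0.15, adjusted p = 0.094). Without the DMSO array 3 (-0.22, adjusted p = 0.023) or the tZ array 2 (-0.21, adjusted p = 0.03) rpl5 passed as lower.

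Translation factors followed, with 7 of 8 higher and 0 lower in limma's test, also with 0 lower at an unadjusted p below 0.05 (median change 0.45). The initiation factor gene eIF3k read 4182, 3781 and 3702 in DMSO and 6978, 8445 and 7972 in tZ without overlap (1.00 ± 0.072, adjusted p = 3.9e-08). The helicase gene eIF-4A-3 rose by 0.83 and the elongation factor gene EF-1-beta by 0.59, while the scaffold gene eIF-4G read 2274 and 2298 and did not pass, although 1 of its other 3 probe sets did (0.43, adjusted p = 0.03). In root, where 14.7% of all genes were higher and 22.1% lower, 7 ribosomal protein genes rose and 1 fell, with a median change of 0.13, and 20 of 24 differed between the organs in the interaction test. For RPS26 the root change was 0.26 and the leaf minus root difference 1.49 ± 0.093, adjusted p = 1.1e-11.

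Most photosynthesis and chlorophyll genes fell. In whole leaves, fewer cells of a type and less RNA per cell cannot be told apart. Of 13 photosynthesis genes 11 fell and 0 rose in limma's test, also with 0 higher at an unadjusted p below 0.05 (median change -0.73). OsrbcS, for the small subunit of rubisco, read 18921, 19097 and 21196 in DMSO and 6877, 8440.2 and 8026 in tZ (-1.34 ± 0.079, adjusted p = 3.9e-09). The photosystem II gene PSB28 read 659.7, 720.3 and 687 and 220.2, 182 and 209 (-1.67 ± 0.089, adjusted p = 1.3e-09). All DMSO arrays lay above all tZ arrays for both. Smaller falls were found for the antenna protein gene CAB2R (-0.42), the ferredoxin-NADP reductase gene LFNR1 (-0.52) and petC of the cytochrome complex (-0.36). LIR1 read 26737 and 25645 and did not pass.

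Among 13 chlorophyll genes 9 fell and 2 rose, and those that rose were the GLK transcription factors, known to activate such genes. OsGLK1 read 1628, 1651 and 1804 in DMSO and 5599, 6042 and 6258 in tZ (1.80 ± 0.06, adjusted p = 8.4e-12). OsGLK2 rose from 7155 to 10956 (0.61 ± 0.059, adjusted p = 9.4e-07). In both cases every tZ array was above every DMSO array. Another OsGLK2 probe set rose by 1.08 (adjusted p = 1.2e-07), and its 2 dimmest did not pass. CHLH, a subunit of the enzyme that inserts magnesium into the chlorophyll precursor, read 4139, 4272 and 4416 in DMSO and 1349.9, 1047 and 1504 in tZ (-1.72 ± 0.1, adjusted p = 4.2e-09). CAO, which makes chlorophyll b, fell by 1.34, CHLP by 1.33 and the protochlorophyllide reductase gene PORA by 1.51. The chlorophyll breakdown genes SGR, OsNYC1 and OsNOL were lower too, by 0.62, 0.58 and 0.29, so synthesis and breakdown genes moved the same way. The call of CHLG (-0.17) was lost in 8 of 14 alternatives, among them without the DMSO array 2 (-0.13, adjusted p = 0.14).

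Stress-linked transcription factors held the 2 largest falls among the named genes, those of DREB1G and OsWRKY76. DREB factors of the first subgroup are known for induction by cold. DREB1G read 3654, 3143 and 3273 in DMSO and 34.6, 53.9 and 38.8 in tZ, a 79.1-fold lower mean (-5.77 ± 0.13, adjusted p = 1.7e-13). OsDREB1B.1 read 8211, 8954 and 9059 and 1423, 1235 and 1177 (-2.76 ± 0.07, adjusted p = 5.1e-13), and DREB1A fell from 12495 to 3595 (-1.80). Of the 12 DREB, ERF and AP2 genes 5 fell and 2 rose, and the 2 were AP2-5 (1.43) and AP2-1 (1.18), listed by RefSeq also as SHAT1 and OsTOE1. In the interaction test DREB1A differed from root, where it changed by 0.58 (difference -2.38 ± 0.12, adjusted p = 1.2e-13), while DREB1G, at -6.22 in root, did not pass (adjusted p = 0.821).

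Of 6 WRKY genes, a family known from pathogen responses, 4 fell and 1 rose. OsWRKY76 read 10924, 11071 and 11417 in DMSO and 249, 242 and 224 in tZ, a 46.7-fold lower mean (-5.43 ± 0.13, adjusted p = 3.8e-13). OsWRKY62 fell from 1018 to 329.8 (-1.57 ± 0.083, adjusted p = 1.1e-09) and OsWRKY71 from 19178 to 10606 (-0.85, and -1.36 by its other probe set). WRKY9 rose by 0.27. Among 48 MYB, NAC, bHLH and bZIP genes 17 fell and 6 rose. OsbHLH148 fell from 8443 to 1529.5 (-2.45), OsNAC6 by 1.71 and OsBZIP23 by 1.61, and OsMYBS1 rose by 1.94 from 306. OsNAC6 changed by -0.02 in root, and the leaf minus root difference was -1.69 ± 0.12, adjusted p = 1.8e-10.

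Jasmonate, made in plastids and peroxisomes after wounding, acts by removing repressors of the TIFY family, whose genes are in turn induced by the hormone. Of 17 TIFY genes 11 fell and 0 rose in limma's adjusted test, with 1 higher at an unadjusted p below 0.05 (median change -0.90). OsTIFY11e read 13259, 13464 and 14852 in DMSO and 1049.6, 1334 and 1306 in tZ (-3.48 ± 0.08, adjusted p = 2.1e-13). OsTIFY11b read 18422, 18685 and 19445 and 3487, 3693 and 3772 (-2.36 ± 0.046, adjusted p = 5.3e-14). The groups were far apart for both genes, and OsTIFY11a, at 9018 and 1490.1, fell alike (-2.58). OsTIFY3, OsTIFY6a, OsTIFY2a and OsTIFY2b had means of 17343, 2056, 1258 and 565 in DMSO and did not pass. The last 2 and OsTIFY1a, which fell by 0.51, were also in a list of 4 GATA-type and cytokinin response factors, where no gene rose and no other fell.

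At 19 genes, the jasmonate synthesis group held 6 lower (31.6%) and 4 higher (21.1%), with a median change of -0.07. These shares lay near those of all named genes, 29.0% lower and 25.0% higher. The lower genes were the allene oxide cyclase gene, 2 of the 4 genes named for allene oxide synthase and 3 members of the oxophytodienoate reductase family. AOS3 and AOS4 had means below 50 signal units and did not pass. OsAOC, for allene oxide cyclase, read 10283, 10237 and 10883 in DMSO and 5113, 5429 and 4111 in tZ (-1.11 ± 0.081, adjusted p = 4.8e-08). Of the genes named for allene oxide synthase, the AOS of gene 4334233 fell from 3649.6 to 1097 (-1.72). OsOPR4, of the oxophytodienoate reductase family, read 5576, 5383 and 5343 and 876, 1022 and 1011 (-2.47 ± 0.059, adjusted p = 2.8e-13). For OsAOC and OsOPR4 the groups did not overlap. OsOPR7, the reductase known for jasmonate synthesis in rice, read 4576 and 4319 and did not pass. The higher genes were lipoxygenases, which oxidise fatty acids: LOX2.1 rose from 4087 to 8593 (1.06 ± 0.085, adjusted p = 1.2e-07), LOX9 by 0.88 and LOX5 by 0.23. LOX3, at 35.1 and 103, lost its call in 4 of 14 alternatives, among them without the DMSO array 1 (1.05, adjusted p = 0.077). Without the DMSO array 1, or without the tZ array 3, 2 of the 19 genes were higher in place of 4.

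All 3 measured abscisic acid genes fell: OsABA8ox2, for a hydroxylase that breaks the hormone down, read 559, 636 and 676 in DMSO and 174, 149.8 and 189 in tZ (-1.75 ± 0.12, adjusted p = 1.3e-08). OsABA8ox1 fell by 0.91 and the epoxidase gene OsABA1, which acts in synthesis, by 0.63. Under the same labels all 3 rose in root, and each leaf minus root difference passed, at -2.53, -1.67 and -2.07. Of 9 gibberellin genes 4 rose and 2 fell. GA20OX2, the oxidase gene known from semidwarf rice, read 96.6, 52.8 and 140.1 in DMSO and 785, 606 and 768 in tZ without overlap (2.73 ± 0.27, adjusted p = 1e-06). OsGA20ox3 rose by 0.68 and OsKO4 and OsKO5, named for ent-kaurene oxidase, by 0.85 and 0.97. The dim OsKO5, at 17.7 in DMSO and 53.6 in tZ, lost its call without the DMSO array 2 (0.88, adjusted p = 0.056). OsKO4 and OsKO5 were also in the diterpenoid list, and are counted among the rises of both. In turn OsKAO fell by 0.91 and the receptor gene gid1 by 0.31.

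Among 11 ethylene genes 4 rose and 2 fell. The receptor gene OsETR2 read 1037, 893 and 988 in DMSO and 3666, 4631 and 3874 in tZ (2.03 ± 0.08, adjusted p = 4.6e-11), and the tZ arrays were all higher. The OsEIL1 of gene 4332697, a transcription factor of the pathway, fell from 6108 to 1809 (-1.75). Another gene of that name, 107276358, rose from 16404 to 20765 (0.34 ± 0.051, adjusted p = 8.8e-05). In root OsETR2 changed by 1.94, and the receptor genes OsETR3 and OsERS2, which did not pass in leaf, by -1.57 and -1.16. Their leaf minus root differences were 1.59 and 1.33 (adjusted p = 1.4e-11 and 6.2e-06).

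Auxin response families were mixed, with 11 of 53 higher and 17 lower, and 3 of 6 auxin transport and synthesis genes rose and 1 fell. Of these 6 genes 3 did not reach 100 signal units in either group. Among the dim ones OsPIN2, at 8.87 in DMSO and 29.3 in tZ, was counted as a rise (adjusted p = 0.0367). SAUR39 read 475, 369 and 379 in DMSO and 3365, 2782 and 3652 in tZ (2.94 ± 0.1, adjusted p = 1.3e-11). ARF17 rose from 329.5 to 1236 (1.85), IAA2 fell from 2738 to 879.9 (-1.62), and IAA2 changed by 1.32 in root. In the carotenoid pathway, the source of strigolactones and abscisic acid, the 3 phytoene synthase genes fell, OsPSY1 by 1.14, OsPSY3 by 1.40 and OsPSY2 by 1.69. OsCCD8a, for a carotenoid cleavage enzyme, read 26.1 ± 18.6 in DMSO and 419.6 ± 35.5 in tZ (3.35 ± 0.33, adjusted p = 1.1e-06). It read 19.5 in DMSO 120 min and 733 in tZ 120 min.

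Among histone, cell cycle and cytoskeleton genes more passed as higher than as lower, but most members did not pass. Of 28 histone and DNA replication genes 9 rose and 0 fell in limma's adjusted test, with 1 lower at an unadjusted p below 0.05, and 11 of the 28 did not reach 100 signal units in either group. OsRPA70c, a replication protein A subunit, rose from 149.8 to 452 (1.51 ± 0.19, adjusted p = 1.3e-05) and the clamp gene OsPCNA from 624 to 922 (0.55). Of 42 cell cycle genes 12 rose (28.6%) and 6 fell (14.3%), with a median change of 0.08. Of all named genes 25.0% rose and 29.0% fell. SMR1, named after a family of inhibitors of cyclin-dependent kinases, read 1021, 1035 and 1045 in DMSO and 5286, 5387 and 4856 in tZ (2.30 ± 0.05, adjusted p = 1.3e-13). EL2, of the same kind of inhibitor, read 8928, 9223 and 9106 and 2688, 2667 and 2859.5 (-1.72 ± 0.043, adjusted p = 5.1e-13). These inhibitor genes moved in opposite directions without overlap. CYCD5-3, a D-type cyclin gene, fell by 1.89.

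TUB2, a tubulin gene, read 354, 284 and 312 in DMSO and 2259, 2179 and 2399 in tZ (2.78 ± 0.081, adjusted p = 2.2e-12). The TubA of gene 4350197 rose from 3943 to 10777 (1.45), and 6 of 15 tubulin and actin genes rose and 0 fell in limma's test, also with 0 lower at an unadjusted p below 0.05. The median change of the 15 was 0.04, and 9 of them did not pass. ACT7, the brightest actin gene, read 22219.8 and 21141. Wall genes were more often lower: of 30 genes for cellulose, related glucans and xyloglucan 11 fell and 3 rose. OsCesA5, a cellulose synthase gene, read 737, 914 and 1060.5 in DMSO and 110.2, 75.1 and 119 in tZ (-2.93 ± 0.17, adjusted p = 2.4e-09), and OsXTH8, for a xyloglucan-modifying enzyme, fell by 1.70. Only 7 of 29 expansin genes reached 100 signal units in a group, and 2 rose and 3 fell.

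**Figure D4:**
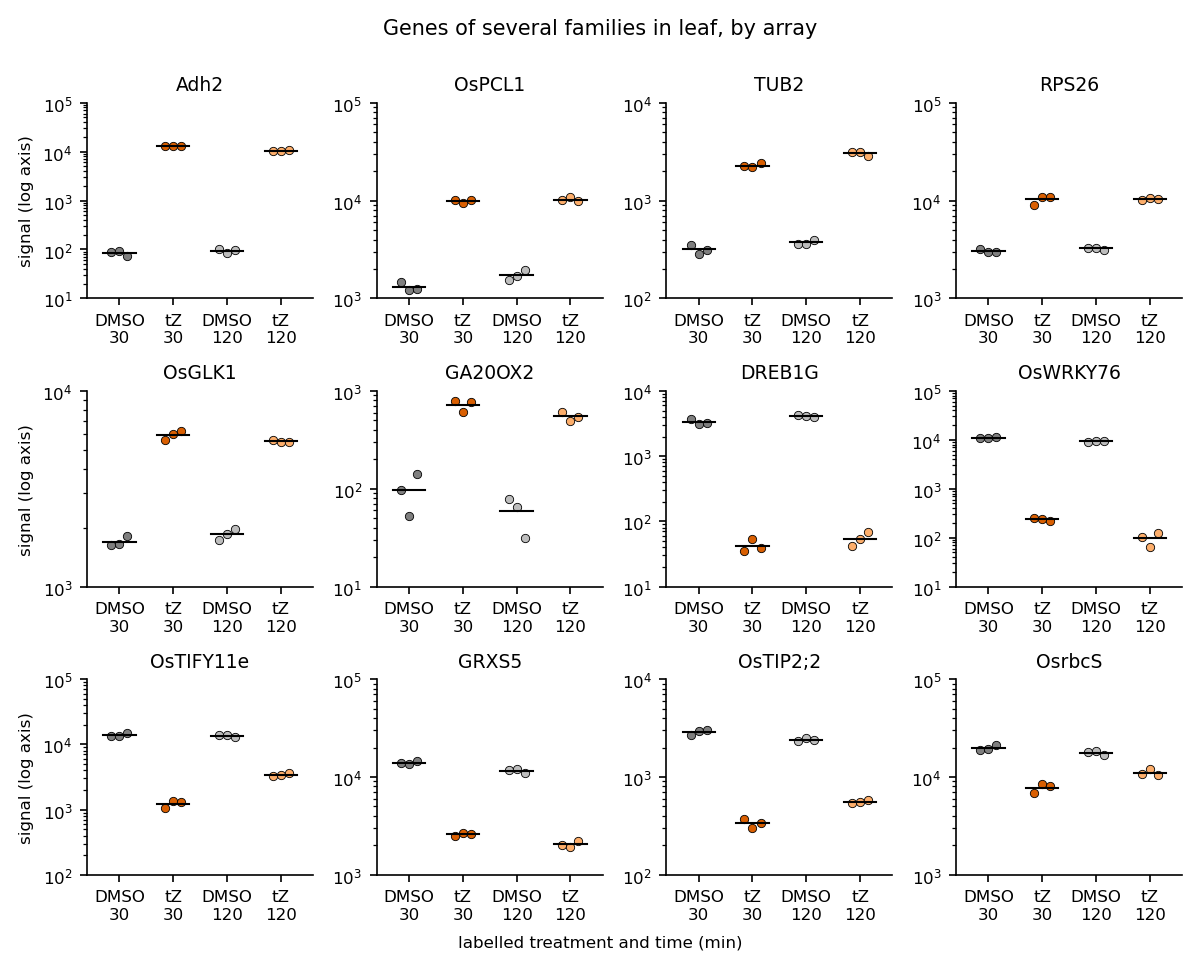
Signal (log axis) of 12 genes from several families in each leaf array, grouped by labelled treatment and time in min; points are arrays and bars group means. The groups labelled DMSO 30 min and DMSO 120 min lie near each other in each panel, and the tZ 30 min and tZ 120 min groups lie together on the other side, as for Adh2 at 84.8 and 94.6 in DMSO and 13147 and 10493 in tZ.

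Water channel genes fell in part of the family. Aquaporins carry water and small solutes across the plasma membrane (PIP) and the vacuolar membrane (TIP). Of 25 genes 11 fell and 7 rose (median change -0.38). OsTIP1, listed by RefSeq also as OsTIP1;2, read 4206, 4249 and 4085 in DMSO and 359, 454 and 409 in tZ (-3.30 ± 0.12, adjusted p = 1.5e-11). OsTIP2;2 read 2694, 2981 and 3004 and 374, 298 and 339 (-3.03 ± 0.077, adjusted p = 5.6e-13), and OsPIP2;6 read 1823, 1595 and 1463 and 282, 264 and 269.9 (-2.49 ± 0.1, adjusted p = 6.3e-11). Every DMSO array exceeded every tZ array for these 3. OsTIP1;1 and OsPIP1;1 fell by 1.83 and 1.70. Rises were at most 1.35, as for OsTIP2 from 118 to 328 (1.35, with 0.70 and no call by its dimmer probe set), and smaller for OsTIP4;1, from 17237 to 22478 (0.38). OsTIP2;2 changed by -0.10 and OsPIP2;6 by -0.12 in root, and the differences between organs passed (-2.93 and -2.38, adjusted p = 1.7e-15 and 4.9e-13).

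Of 16 nitrogen genes 1 rose, the ammonium transporter gene OsAMT3;3 (1.19). The 2 that fell were OsAMT1 (-0.19) and the plastid glutamine synthetase gene OsGS2, from 13111 to 9100.3 (-0.53). Of 21 phosphate genes 1 rose and 6 fell, and of 24 potassium and sodium transport genes 5 rose and 7 fell. Among 44 genes of metal transport and homeostasis 15 rose and 8 fell. There osysl12, of a family that carries metal chelates, rose from 1788 to 4394 (1.29), and the nicotianamine synthase gene OsNAS3 fell from 1839 to 531 (-1.75). OsKCO2, for a vacuolar potassium channel outside these lists, read 1402, 1352 and 1325 in DMSO and 84.6, 93.0 and 107 in tZ (-3.59 ± 0.17, adjusted p = 2.6e-10), and the groups did not overlap.

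Redox and calcium genes fell more often than they rose. Glutaredoxins are small proteins that use glutathione to reduce disulfides, and of 18 genes 9 fell and 3 rose. GRXS5 read 13973, 13611 and 14493 in DMSO and 2479, 2669 and 2604 in tZ (-2.43 ± 0.055, adjusted p = 1.7e-13), and GRXC7 read 6287, 6164 and 5568 and 1606, 1829.5 and 1719.7 (-1.79 ± 0.061, adjusted p = 1.1e-11). Neither pair of groups overlapped. GRXC7 changed by 0.06 in root, a difference of -1.85 ± 0.12, adjusted p = 1.4e-11. Of 21 antioxidant enzyme genes 11 fell and 4 rose, but within a narrower range, from -0.58 to 1.01. Of 77 calcium sensor and calcium-regulated kinase genes 34 fell and 16 rose. OsCDPK4 read 11654, 12908 and 13648 in DMSO and 1641, 1699 and 1880.2 in tZ (-2.86 ± 0.079, adjusted p = 1.2e-12), and the calmodulin-like gene CML10 fell from 9422 to 1728 (-2.44). OsCIPK16 rose from 466 to 1506 (1.69).

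The circadian clock list of 7 genes held 1 rise and 3 falls. OsPCL1, of the LUX-like evening factors, read 1458, 1230.0 and 1260.1 in DMSO and 10089, 9448 and 10014 in tZ (2.89 ± 0.081, adjusted p = 1.4e-12). The morning factor gene OsCCA1 read 6156, 6614 and 6547 and 3566, 3623 and 3621 (-0.83 ± 0.046, adjusted p = 2e-09). The groups separated in both cases and in opposite directions. OsPRR37 and OsPRR73 fell by 0.45 and 0.30, though the dimmer OsPRR37 probe set did not pass, while OsPRR1, OsPRR95 and GI, with means of 7002, 18462 and 15116 in DMSO, did not pass.

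Carbohydrate genes were lower in 17 of 51 cases (33.3%) and higher in 6 (11.8%), with a median change of -0.165. Of all named genes 29.0% were lower and 25.0% higher. In this list 28 genes did not pass, and 20 did not reach 100 signal units in either group. The trehalose phosphate phosphatase gene OsTPP7 read 12254, 12071 and 12837 in DMSO and 3469, 3304 and 3349 in tZ (-1.87 ± 0.044, adjusted p = 2.9e-13), and OsTPP1 fell from 5316 to 1639.6 (-1.69). Of the 8 genes named for this enzyme 3 fell and 1 rose, OsTPP9 from 239 to 357 (0.54), with a median change of -0.14 that was 0.05 without the tZ array 3. The sugar transporter gene OsSWEET1b rose from 2598 to 6711 (1.36), OsSWEET14 fell by 1.53, and the amylase gene AMY1.3 rose from 79.7 to 355 (1.92). Of 43 heat shock genes 11 rose and 13 fell. The small chaperone genes OsHsp18.8 and OsHsp17.9B rose by 1.29 and 1.17, from 6161 and 5798. The heat shock factor gene OsHsf-25 rose by 2.49 by its brightest probe set, while its other probe set changed by -0.53 (adjusted p = 0.029).

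Defence metabolism moved in both directions. Diterpenoid phytoalexins are antimicrobial compounds of rice, and 8 of 19 genes of their synthesis and related steps rose and 3 fell. OsCPS4, a diphosphate synthase gene, rose from 65.8 ± 19.8 to 397 ± 33.9 (2.30 ± 0.28, adjusted p = 1.1e-05), and OsKS10 from 498 to 1088 (1.10). Of 13 chitinase and other pathogenesis-related genes 5 rose and 3 fell, with OsChia1a higher by 1.07 and Cht11 at -0.86. In the phenylpropanoid, flavonoid and lignin list of 16 genes 6 rose and 6 fell, with 3 in place of 6 higher without the tZ array 1, and of 8 late embryogenesis and dehydrin genes 2 rose and 2 fell. OsNPR3, related to the salicylic acid receptor known from Arabidopsis, read 11519.7, 11409.7 and 10637 in DMSO and 1702, 1566 and 1933 in tZ (-2.68 ± 0.066, adjusted p = 4.4e-13).

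Homeobox genes included changes opposite to those of root. OsHox4, of the HD-Zip family, read 802, 831 and 722 in DMSO and 4254, 3970.4 and 4148 in tZ (2.37 ± 0.072, adjusted p = 3.1e-12), and changed by -1.36 ± 0.15, adjusted p = 7.5e-06 in root. OsHox2 rose from 57.0 to 236 (1.75) and changed by -2.08 in root, and OsHox15 fell from 7538 to 2408 (-1.64). Of 31 genes in the list 5 rose and 7 fell. Of 50 CCCH zinc finger genes 16 rose and 9 fell, with OsC3H37 read as 739, 762 and 729 in DMSO and 8882, 7907 and 8312 in tZ (3.46 ± 0.053, adjusted p = 5.9e-15).

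Further genes with large changes lay outside the families. PCF3, named as a TCP-type transcription factor, rose from 25.4 ± 29.6 to 316 ± 42.5 (3.07 ± 0.34, adjusted p = 3.8e-06), with a change of 1.94 when 80 was added. OsRIBA2, for a riboflavin synthesis enzyme, read 10487, 11238 and 11831 in DMSO and 1659, 1694 and 1683 in tZ (-2.72 ± 0.057, adjusted p = 1e-13). PDX12, of the vitamin B6 synthesis family, read 1985, 1837 and 2000.3 and 293, 286 and 246 (-2.73 ± 0.082, adjusted p = 2.8e-12). OsCRSH2, of the calcium-activated plastid enzymes that make the alarmone ppGpp, read 3071, 2994 and 2734 and 280.3, 289 and 322 (-3.22 ± 0.076, adjusted p = 2.6e-13). The 3 vitamin and alarmone genes fell without overlap between groups. OsTBT2, named as a benzoyl transferase, read 49.3 ± 23.3 and 425 ± 73.5 (2.72 ± 0.24, adjusted p = 3.6e-07). A gene named only peroxidase rose from 82.3 ± 22.2 to 913 ± 116 (3.20 ± 0.14, adjusted p = 1.8e-10).

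**Figure D5:**
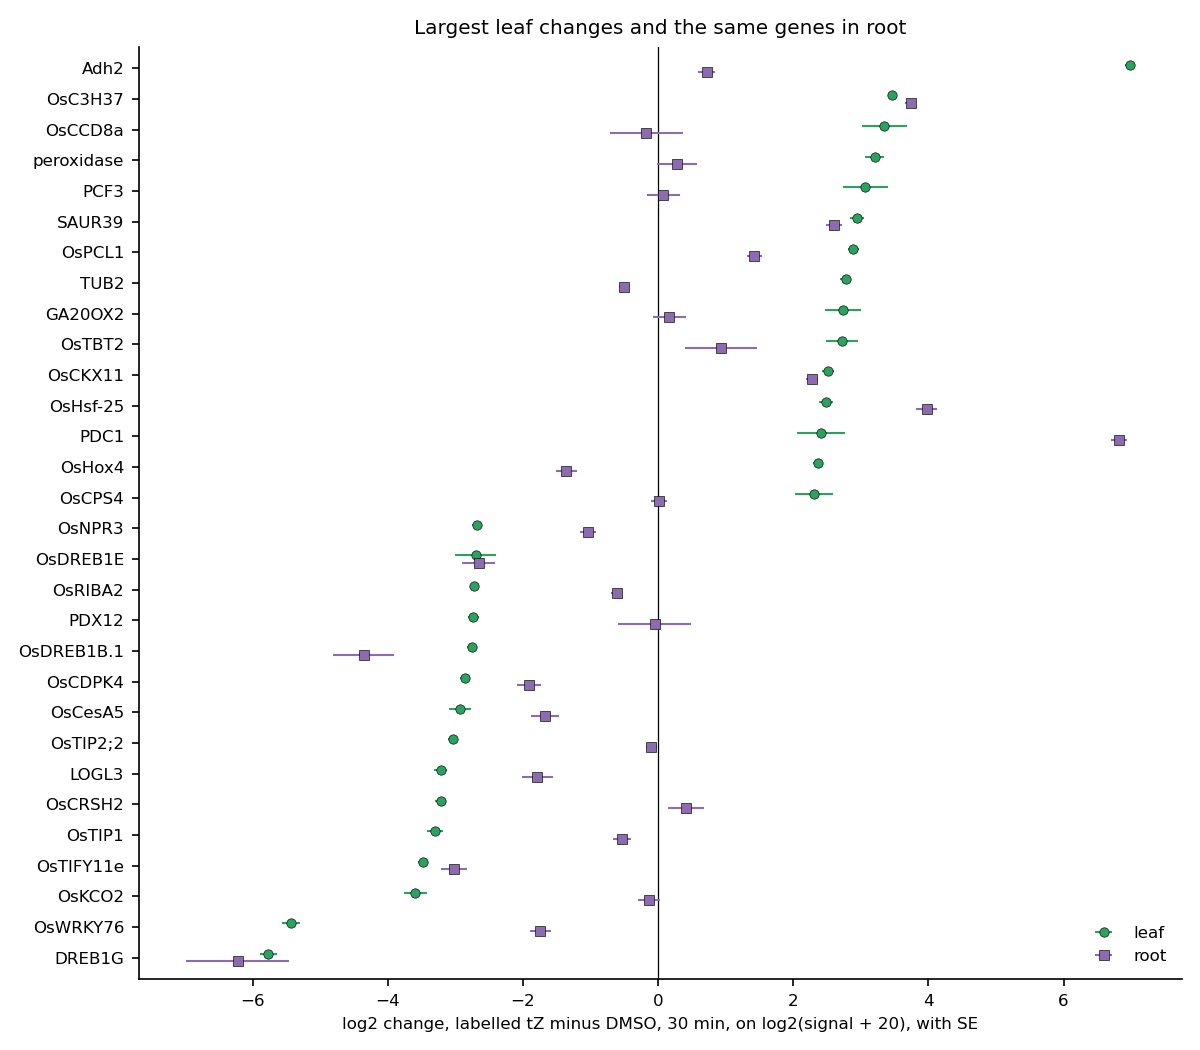
Log2 change with SE, labelled tZ minus DMSO at 30 min, of the 30 leaf genes with the largest changes, 15 in each direction, with the same genes in root (squares). TUB2 and OsHox4 lie on opposite sides of 0 in the organs, and PDC1 stands at 2.41 in leaf and 6.82 in root.

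How far the leaf response differed from the root response under the same labels was tested as an interaction over all 24 arrays, and 11303 probe sets passed (19.8%), or 7053 genes (39.4%). Of the 15 genes with the largest rise in leaf, 13 differed between the organs, 7 had also risen in root, 2 had fallen there and 6 did not pass in root, where 36.8% of all genes passed. Of the 15 with the largest fall, 12 differed, and 11 had also fallen in root while 4 did not pass there. These genes were chosen for their leaf change, which by itself favours larger changes in leaf. By family, 20 of 24 ribosomal protein genes, 6 of 8 LOG genes and 3 of 3 abscisic acid genes differed between the organs, and 4 of 13 photosynthesis genes did. Some photosynthesis genes read low in root DMSO 30 min, LFNR1 at 136 and OsrbcS at 349, though CAB2R read 9713. The SE of the organ difference was 0.18 for LFNR1 and 0.17 for OsrbcS, against 0.048 and 0.079 for their leaf change. A photosynthesis gene that did not differ was therefore not shown to change alike in both organs.

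The leaf change at 120 min was tested against that at 30 min as well. It differed in 1096 of 57194 probe sets (1.92%). Among the 30 genes with the largest changes, all 30 passed in the same direction between tZ 120 min and DMSO 120 min, where 49.1% of all genes passed, and 10 differed between the times. Between DMSO 120 min and DMSO 30 min 2 of the 30 passed, the peroxidase and PDX12, against 1.26% of all genes. OsTIFY11e stood at 13493 ± 469 in DMSO 120 min and 3431 ± 176 in tZ 120 min, so that its change was smaller at 120 min (difference 1.51 ± 0.11, adjusted p = 3.4e-06). SAUR39 read 443 ± 24.4 and 1484 ± 30.4, also a smaller change (difference -1.24 ± 0.14, adjusted p = 0.00021). OsWRKY76 read 9408 ± 282 and 97.7 ± 30.2, a larger fall (difference -0.93 ± 0.19, adjusted p = 0.0186). The difference between the times keeps its value if the labels tZ 30 min and DMSO 120 min are exchanged, since both enter it with the same sign. The comparison labelled tZ 120 min against DMSO 120 min would then be of tZ for 120 min with tZ for 30 min.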

How the data were processed

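Total RNA of excised leaves and roots was turned into biotin-labelled cRNA and hybridised to 1-colour arrays, per the labels' protocols. The deposited values are linear signal intensities per probe set, and the summarising method is not given in the sources used here. The mean intensity after trimming 2% at each end was 500.07 or 500.08 on every deposited array, so the authors' values had been scaled. Of 57381 probe sets 187 controls were left out and 57194 analysed. Platform annotation paired 22436 of them with 1 gene, 95 with several and 34663 with none. Names came from RefSeq (assembly ASM3414082v1), and 2457 of 17905 genes had one.

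Values were transformed as log2(signal + 20), without a filter, and fitted with limma 3.58.1 in R 4.3.3 (lmFit, eBayes with an intensity trend, two-sided, Benjamini-Hochberg over all 57194 probe sets, threshold 0.05). The 4 leaf groups entered 1 fit, and all 8 groups the fit for the leaf minus root difference. All adjusted p-values in the text are from limma. The number of arrays, 3 per group, limits the precision. The fit was tested on simulated data.

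A gene was represented by its probe set with the highest mean over the leaf arrays. Genes with the largest changes are the 15 highest and 15 lowest with adjusted p below 0.05, groups that did not overlap and a mean above 100 in the higher group. Lists of up to 6 genes were to be named in full, and others by up to 3 genes in each direction; further members and genes that did not pass were named after their values were seen. The comparison, the 44 gene lists and their members were chosen with earlier results of these data known. Same-numbered arrays were not paired: their deviations from the group means correlated at 0.0145, -0.0129 and 0.00153 across probe sets. Alternatives were other pseudocounts, a filter on dim probe sets, other scalings, no intensity trend, fewer groups, the replicate number as a block, each array left out and all probe sets of a gene averaged.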

Additional observations from a re-analysis of the deposited data

Results flagged for a closer look

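For 25 of the 30 genes with the largest leaf changes, the change at 30 min differed between leaf and root in limma's interaction test. Of all genes 39.4% did. The values below are leaf minus root differences on the log2 scale, and tZ and DMSO are used as labelled. The genes were chosen for their leaf change.

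Opposite changes were found for TUB2 (3.28) and OsHox4 (3.73), which rose in leaf and fell in root. Among the genes that rose in leaf, the change was larger there for Adh2 (6.26), OsCCD8a (3.53), PCF3 (2.99), the peroxidase (2.93), GA20OX2 (2.56), OsCPS4 (2.29), OsTBT2 (1.79) and OsPCL1 (1.46). It was larger in root for PDC1 (-4.41) and OsHsf-25 (-1.49). Root levels differed widely, with Adh2 at 22403 in DMSO and 36768 in tZ, and OsCCD8a at 29.6 and 28.2. OsC3H37 differed by -0.28, a difference that turned to 0.201 and did not pass after quantile normalization (adjusted p = 0.082).

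Among the genes that fell in leaf, the fall was deeper there for OsWRKY76 (-3.69), OsCRSH2 (-3.63), OsKCO2 (-3.46), OsTIP2;2 (-2.93), OsTIP1 (-2.77), PDX12 (-2.68), OsRIBA2 (-2.11), OsNPR3 (-1.64), LOGL3 (-1.43), OsCesA5 (-1.26) and OsCDPK4 (-0.94). OsDREB1B.1 fell further in root (1.6). The adjusted p of these differences was at most 0.049, that of OsC3H37.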

How the results depend on the processing

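Between 13364 and 15637 probe sets passed for leaf at 30 min under the alternatives, against 14866, and 13870 to 14109 with an array left out. The share of calls that were higher lay between 48.9% and 52.7%, and 0 probe sets passed in the opposite direction under any setting. For the leaf minus root difference 10465 to 10966 passed with an array left out, against 11303. The difference between 120 and 30 min depended most on the setting. Against 1096 (588 higher, 508 lower), 640 passed with arrays shifted to the same median (336 higher, 304 lower) and 419 without the intensity trend (262 higher, 157 lower); the cause was not tested. With an array left out 757 to 983 passed, 425 to 551 higher and 329 to 441 lower. With the replicate number as a block, which does not pair these arrays, 14518, 11053 and 875 passed in the 3 comparisons. The leaf minus root difference of OsC3H37 was 0.201 after quantile normalization (adjusted p = 0.082) against -0.28, and the cause was not tested. For single genes followed under each setting, the leaf call at 30 min was kept in 3548 pairs of gene and setting, lost in 82 and gained in 17. List medians near 0 changed sign under at least 1 alternative for the dehydrogenases, auxin response, expansins, tubulins and actins, CCCH zinc fingers, clock, homeobox, trehalose phosphate phosphatase, phenylpropanoid and GATA lists.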

Other observations

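Probe sets without a gene name also held large changes. Of the 34758 probe sets that were not paired with a single gene, 2421 were higher and 1943 lower in the leaf arrays labelled tZ 30 min, or 12.6% in all. Their median signal was 24.1, against 434.1 for the 22436 probe sets with 1 gene, of which 46.8% passed. Among probe sets without a gene, the highest rise was from 20.7 ± 13.96 in DMSO 30 min to 4225.3 ± 267.8 in tZ 30 min (SD, n = 3 arrays), a log2 change of 6.77, and the next from 16.5 ± 13.3 to 2983 ± 466.9. The deepest fall was from 3867 ± 263.0 to 47.2 ± 37.2, a log2 change of -6.01, and the next from 1386 ± 124.5 to 5.0 ± 1.82. In the 120 min groups these 4 probe sets stood on the same sides, at 9.17, 16.9, 3260 and 1304 in DMSO and at 1836, 1743, 56.2 and 12.1 in tZ.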
